A study of Mus musculus with 2 samples.

Results

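The mouse genes of 6 solute carrier families that move amino acids across membranes were compared between stimulated T cells with and without triptolide. Members were all genes on the array whose symbol starts with Slc1a, Slc3a, Slc7a, Slc36a, Slc38a or Slc43a, read from every probe set annotated to exactly 1 gene. This gave 42 of the 18193 genes on the array, with 89 of the 34945 probe sets that name 1 gene. Of the 42, 40 are carrier genes or their subunits, and Slc7a6os and Slc36a1os are named only for lying opposite one. The choice used symbols, not measured values, but was made with earlier results of these data known.

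RNA came from mouse primary T cells that had been purified and cultured for 18 h, and was labelled with biotin and hybridised to Affymetrix 3′ expression arrays. One group was stimulated with anti-CD3/CD28 antibodies, which engage the antigen receptor complex and its costimulator CD28. The other received the same antibodies and triptolide at 50 ng/ml. Triptolide is a plant diterpenoid that blocks transcription through the XPB subunit of TFIIH. Each group is 1 array, so no comparison has a replicate check and no p-value can be given. The sources used here do not give the mouse strain, the animals' age, their number or the length of the triptolide exposure. No unstimulated cells were analysed here, so induction by the antibodies cannot be read from these values.

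Amino acid carriers supply a T cell that leaves quiescence with the building blocks of protein synthesis. The SLC7 light chains of the heteromeric transporters reach the plasma membrane bound to an SLC3 heavy chain: LAT1 (Slc7a5) pairs with CD98 (Slc3a2) and exchanges intracellular glutamine for leucine and other large neutral amino acids. Glutamine enters through sodium-coupled carriers such as ASCT2 (Slc1a5) and SNAT1 and SNAT2 (Slc38a1 and Slc38a2), arginine and lysine through CAT1 (Slc7a1), and SLC36, SLC38 and SLC43 also hold carriers of lysosomes and of sodium-independent transport. Leucine and arginine in turn activate the growth kinase mTORC1, and shortage of amino acids raises the transcription factor ATF4, which induces several of these carriers.

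Most detected carriers of amino acids lay within 2-fold between the arrays. A gene was called detected when its representative probe set, the one with the highest mean log2 signal, exceeded a background floor of 118 on at least 1 array. That floor is the 95th percentile of 87 probe sets of smell, taste and related chemosensory receptor genes. Of the 42 genes, 25 were detected, 17 of them above the floor on both arrays and 8 on 1 array only, and 17 were under the floor on both. With signals under the floor set to it, 1 of the 25 was at least 2-fold higher with triptolide (Slc3a1), 1 was at least 2-fold lower (Slc43a2), and 23 lay within 2-fold. Of the 23, 7 were at the floor on 1 array, so their ratios are lower bounds. Over all 10886 detected genes, 5.60% were at least 2-fold higher and 12.4% at least 2-fold lower (18.0% in all). The share of members that were higher, 4.0%, was near the background, and that of members that were lower, also 4.0%, rests on 1 gene. The median log2 ratio of the 25 genes was 0.03, beside -0.16 for all detected genes, and 13 were above 0 and 12 below.

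**Figure D1:**
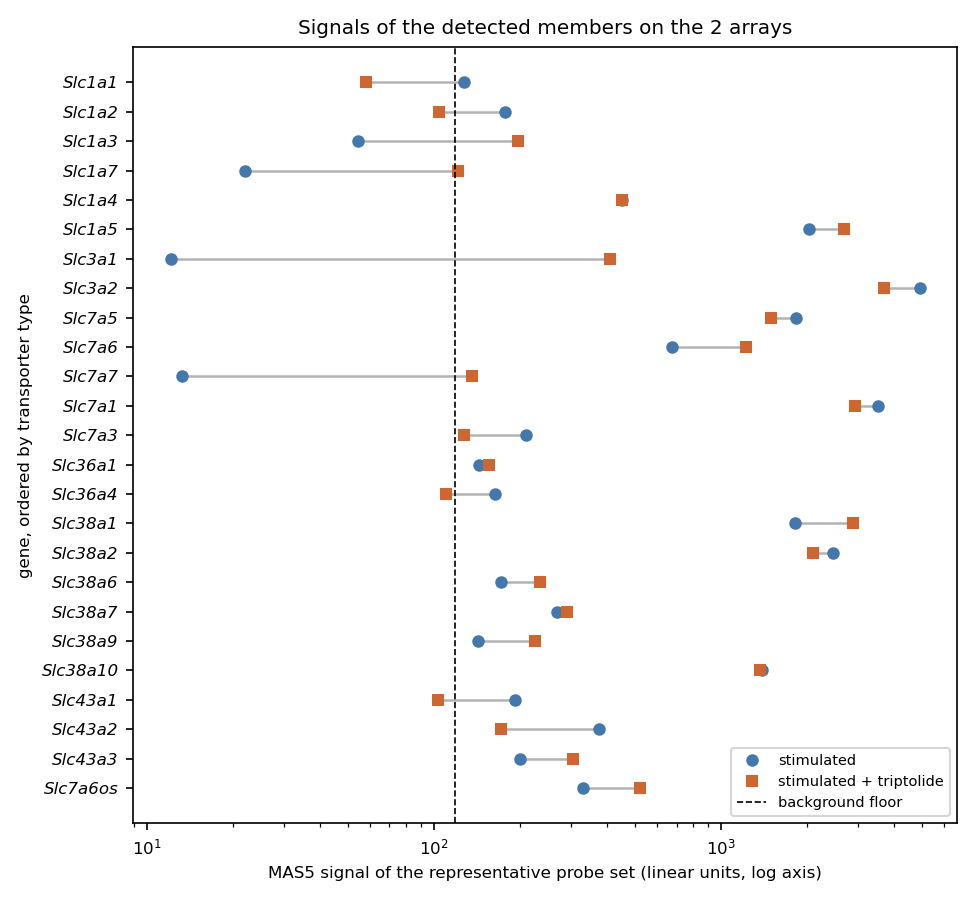
MAS5 signal (log axis) of the representative probe set of each of the 25 detected genes on the stimulated array (circles) and on the stimulated plus triptolide array (squares), with the background floor of 118 as a dashed line. Slc3a1 crosses the floor from 12.1 to 411 and Slc43a2 goes from 375 to 171, while the other genes lie within 2-fold once signals under the floor are set to it.

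Sequences just before the start sites are shown for both called genes, and for Slc7a11, the cystine carrier gene whose promoter is a textbook ATF4 target. They are the 250 bases before the start in the RefSeq promoter table of mouse build GRCm38.p6, 5′ to 3′ on the gene's strand. Capitals mark matches, on either strand, to 4 motifs: the TATA box letters TATAAA, the AP-1 site TGACTCA, the E-box CACGTG and the core of the C/EBP-ATF response element, TGATGNAA. The Slc3a1 window is chr17:85028097-85028346, + strand, that of Slc43a2 chr11:75531444-75531693, + strand, and that of Slc7a11 chr3:50443614-50443863, - strand.
Slc3a1: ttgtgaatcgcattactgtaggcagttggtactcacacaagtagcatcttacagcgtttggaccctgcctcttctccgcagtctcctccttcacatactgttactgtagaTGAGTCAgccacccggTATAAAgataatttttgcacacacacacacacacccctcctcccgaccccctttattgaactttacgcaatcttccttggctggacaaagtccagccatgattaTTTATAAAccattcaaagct
Slc43a2: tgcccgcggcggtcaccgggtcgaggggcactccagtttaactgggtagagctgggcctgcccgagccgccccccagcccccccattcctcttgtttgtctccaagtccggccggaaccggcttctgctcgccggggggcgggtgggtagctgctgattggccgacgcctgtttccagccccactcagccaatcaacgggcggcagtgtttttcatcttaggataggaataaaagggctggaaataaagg
Slc7a11: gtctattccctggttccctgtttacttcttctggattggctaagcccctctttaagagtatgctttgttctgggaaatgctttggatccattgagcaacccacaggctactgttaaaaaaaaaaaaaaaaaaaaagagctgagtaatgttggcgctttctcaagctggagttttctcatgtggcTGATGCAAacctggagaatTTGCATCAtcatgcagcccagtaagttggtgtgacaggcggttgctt
The Slc3a1 window held an AP-1 match whose first base lay 140 bases before the start and 3 TATAAA matches, 124, 20 and 18 bases before it, the last 2 overlapping on opposite strands. The Slc43a2 window held none of the 4 motifs, nor did that of a further Slc43a2 start in the table. The Slc7a11 window held TGATGNAA matches at 66 and 47 bases before the start, in opposite orientation.

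The promoter table held 31 of the 42 members, with 42 windows of 300 bases (250 before to 50 after a start), which were compared with all 32851 windows of 27025 genes. CACGTG, the E-box that MYC binds, was in at least 1 window of 7 of the 31 genes (22.6%), beside 8.09% of all genes. Of the 7, Slc1a7, Slc36a1, Slc38a7 and Slc43a1 lay within 2-fold on floored signals, and Slc1a6, Slc38a5 and Slc7a14 were under the floor. TGATGNAA was in 3 genes (9.68%, beside 4.51%), namely Slc1a4, Slc7a7 and Slc7a11. TATAAA was in 6 (19.4%, beside 15.7%) and TGACTCA in 2 (6.45%, beside 5.95%), namely Slc3a1 and Slc7a1. A match is a description of the letters, not a bound site.

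Among the heavy chains, the CD98 gene Slc3a2 had a signal of 4914 without and 3703 with triptolide on its single probe set. The triptolide array was the lower, at a log2 ratio of -0.41, or 1.33-fold. Its main partner in T cells, the LAT1 gene Slc7a5, had signals of 1823 and 1493 on a single probe set. The log2 ratio of Slc7a5 was -0.29. Both subunits of this exchanger were thus slightly lower, each by less than the SD of 0.49 (log2) found between probe sets of the same gene over 3733 genes.

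Slc3a1 encodes the other heavy chain, rBAT, known for cystine uptake in kidney and intestine. Its signal was 12.1 without and 411 with triptolide on a single probe set. The stimulated array was under the floor, so the ratio is a lower bound, at least 3.47-fold higher with triptolide. Without a floor the log2 ratio would be 5.09, a value that rests on a signal below the background floor. The light chain that rBAT needs in the kidney, b0,+AT (Slc7a9), stayed under the floor on both arrays, with signals of 65.7 and 26.2. So did Slc7a13, another rBAT partner, with 45.1 and 52.8 on its brighter probe set. Prepl, whose gene overlaps Slc3a1 in the RefSeq table, had signals of 336 and 246 and a log2 ratio of -0.45.

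Of the 10 light chain genes, 3 were detected: Slc7a5, Slc7a6 and Slc7a7. Slc7a6 encodes y+LAT2, which exports arginine in exchange for glutamine with CD98. Its representative probe set had signals of 674 without and 1222 with triptolide, a log2 ratio of 0.86 the nearest to 2-fold among members within it that were measured on both arrays. Its other probe set went the other way, from 623 to 513, at -0.28. No direction can be given for Slc7a6. The opposite-strand gene Slc7a6os had signals of 330.3 and 520.1 (log2 ratio 0.66), and 84.1 and 122 on its second probe set, where the value without triptolide lay under the floor.

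Slc7a7, the y+LAT1 gene known from macrophages and epithelia, had signals of 13.3 and 136 on one probe set and of 75.0 and 7.7 on the other. It passed the floor only on the triptolide array and only just, at least 1.15-fold. Slc7a8 (LAT2) had signals of 10.1 and 70.9, both under the floor. Slc7a11, which encodes the xCT cystine-glutamate exchanger, was under the floor as well, with 3.2 and 67.9 on one probe set and 8.7 and 4.1 on the other. Slc7a9, Slc7a10, Slc7a12, Slc7a13 and Slc7a15 were likewise not detected. The TGATGNAA matches described above thus belonged to Slc7a11, which was not detected, to Slc7a7, above the floor on 1 array only, and to Slc1a4.

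For the cationic amino acid transporter CAT1, the arginine and lysine carrier of activated T cells, the 3 probe sets of Slc7a1 did not go the same way. The representative one had signals of 3529 without and 2918 with triptolide, a log2 ratio of -0.27. A second had 2680.4 and 3713, a ratio of 0.47. The third went from 161 to under the floor at 83.4. The 2 probe sets measured on both arrays thus differed in sign, and no direction is given. Slc7a3 (CAT3) had signals of 209.6 and 128 on its single probe set, a log2 ratio of -0.71, with the triptolide value close to the floor. Snx12, whose gene overlaps Slc7a3 in the RefSeq table, had signals of 557 and 213 and was at least 2-fold lower (log2 ratio -1.39). Slc7a2, Slc7a4 and Slc7a14 were under the floor.

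The neutral amino acid exchangers of SLC1 lay within 2-fold on their representative probe sets. ASCT2 (Slc1a5), which brings in glutamine, had signals of 2017 and 2685, a log2 ratio of 0.41. Its dimmer probe set had 213.5 and 148, a ratio of -0.53, so the 2 disagreed in sign. ASCT1 (Slc1a4), an exchanger of alanine, serine and cysteine, had 452.2 and 452.1 on its representative probe set, the closest to equal of all members. Its other probe sets were lower with triptolide, from 198 to 44.2 and from 129 to 21.0. Because the triptolide signals of both lay under the floor, these ratios are bounds of at least 1.67-fold and at least 1.09-fold.

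The glutamate and aspartate carriers of SLC1, best known from neurons and glia, were close to background. None of the 5 genes was above the floor on both arrays. Slc1a1 (EAAT3) had signals of 127 and 58.1, and Slc1a2 (GLT-1) of 177 and 104.5, both at the floor with triptolide. Slc1a3 (GLAST) had 54.3 and 196 on 1 probe set, whose name marks it as able to bind other transcripts, while its other 5 probe sets were under the floor on both arrays. Slc1a7 had 22.0 and 121, and Slc1a6 was not detected. The bounds were between -0.58 and 0.72 on the log2 scale, none reaching 2-fold.

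The SLC38 family takes up glutamine and small neutral amino acids with sodium and includes lysosomal members. Of 9 genes on the array 6 were detected, all above the floor on both arrays, with log2 ratios from -0.23 to 0.68 and a median of 0.28. Slc38a1 (SNAT1) had signals of 1804 without and 2891 with triptolide, and of 1841 and 1979 on its second probe set. Both probe sets were above 0, at 0.68 and 0.10 on the log2 scale, but the second fell to -0.02 when the arrays were scaled on housekeeping genes.

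Slc38a2 (SNAT2), an amino acid-responsive glutamine carrier, went the other way on each of its 3 probe sets. The representative one had signals of 2447 and 2085, a log2 ratio of -0.23. Another had 1358 and 585, which is 2.32-fold lower (log2 ratio -1.21), and the third 190.3 and 163, a ratio of -0.22. The sign was the same in all 3 as deposited, but only 1 passed 2-fold, and the third was at 0.01 after quantile normalization. SNAT1 and SNAT2 thus lay on opposite sides of 0 on every probe set as deposited, though not under every scaling, and with 1 array a group the difference between them has no test.

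Slc38a9 encodes the lysosomal arginine sensor that signals to mTORC1. Of its 7 probe sets 5 were detected and 4 of these were above 0. The representative one had signals of 143 and 225, a log2 ratio of 0.65. The largest ratio came from a probe set under the floor without triptolide, 65.5 to 250.5, at least 2.12-fold higher as deposited and within 2-fold, at 0.96, when scaled on housekeeping genes. A similar one went from 56.8 to 201 (at least 1.70-fold), while 2 others were near equal, 146 to 161 and 119 to 105.3. Slc38a10, a less studied member, had 6 detected probe sets of 7, with log2 ratios from -0.08 to 0.75, of which 4 were above 0. Both ends of that range came from probe sets whose names mark them as able to bind other transcripts. The representative Slc38a10 probe set had 1394 and 1367, while the median over the 6 was 0.46.

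Slc38a6 had signals of 171 and 233.5 (log2 ratio 0.45), and the lysosomal glutamine carrier gene Slc38a7 of 268 and 291 (0.12). Slc38a3, Slc38a4 and Slc38a5 were not detected. Slc38a3 came closest, with 97.0 and 118, its higher value just under the floor. The proton-coupled SLC36 carriers of lysosomes and epithelia were dim: Slc36a1 (PAT1) had 143 and 155.5, and Slc36a4 (PAT4) had 163 and 109.9. Slc36a2, Slc36a3 and the opposite-strand Slc36a1os were under the floor. Both detected SLC36 genes stayed within 2-fold.

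SLC43 holds the sodium-independent carriers LAT3 and LAT4, which carry leucine and other large neutral amino acids without a heavy chain. The LAT4 gene Slc43a2 had signals of 375 without and 171 with triptolide, 2.19-fold lower (log2 ratio -1.13). Its second detected probe set had 309 and 117, at least 2.61-fold lower, since the triptolide value lay at the floor. The remaining probe set was under the floor on both arrays. Both detected probe sets of Slc43a2 were thus at least 2-fold lower as deposited, which holds for no other member; after quantile normalization they were at -0.90 and -1.20. Slc43a1 (LAT3) had 192 and 103.5 on a single probe set, at least 1.62-fold lower. Slc43a3, a carrier of purine bases rather than amino acids, had 200.0 and 306 and a log2 ratio of 0.61.

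Probe sets of 1 gene gave the only view of technical precision, which covers probe behaviour and transcript variants but neither cultures nor animals. In 7 members at least 2 probe sets were above the floor on both arrays: Slc1a5, Slc7a1, Slc7a6, Slc38a1, Slc38a2, Slc38a9 and Slc38a10. In 4 of the 7 these went both ways, and in 3 (Slc38a1, Slc38a2 and Slc38a9) all went 1 way. Between the 2 with the highest signals the SD was 0.55 per probe set in these 7 genes, beside 0.49 over 3733 genes, and the sign was the same in 3 of 7, beside 72.0% of all. Counted by probe set, 45 of 89 were detected, 2 were at least 2-fold higher (of Slc3a1 and, except when scaled on housekeeping genes, of Slc38a9) and 3 at least 2-fold lower (2 of Slc43a2 and 1 of Slc38a2). Over all 19209 detected probe sets, 5.69% were at least 2-fold higher and 12.8% lower. Of the 25 detected genes, 10 had a single probe set on the array, Slc3a1, Slc3a2 and Slc7a5 among them.

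**Figure D2:**
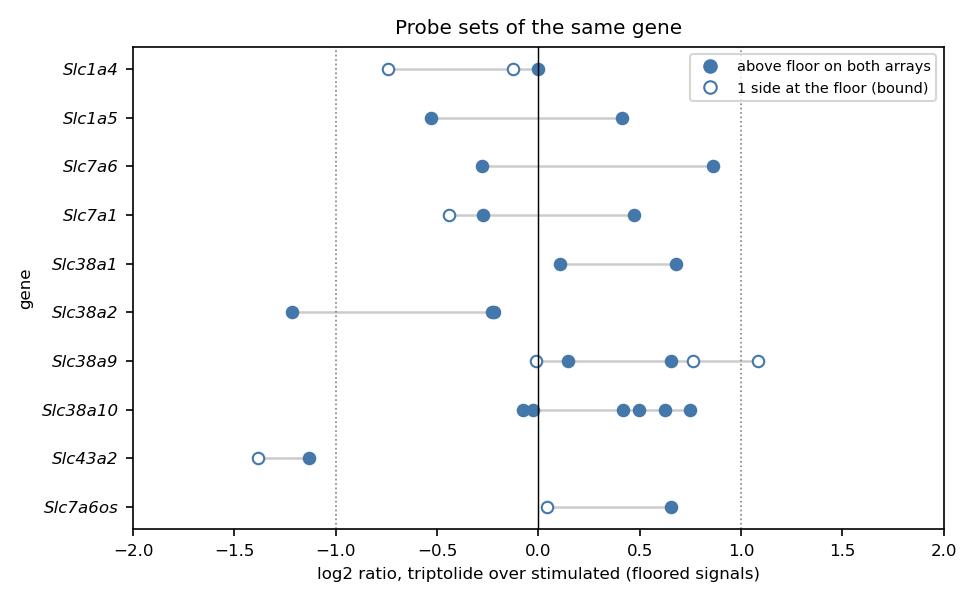
Log2 ratio of triptolide over stimulated for each detected probe set of the 10 members with at least 2, filled where both arrays were above the floor and open where 1 side was at it, with dotted lines at 2-fold. Both probe sets of Slc43a2 lie beyond the lower line, while those of Slc1a5, Slc7a1 and Slc7a6 lie on both sides of 0.

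The sign of the smaller ratios depended on how the arrays were scaled. The median of all detected genes was -0.16 as deposited, -0.05 after centring both arrays on their median, 0.01 after quantile normalization and -0.27 when scaled on 24 housekeeping genes. Those genes ranged from Tubb5 (-1.78), Pgk1 (-0.75) and Reep5 (-0.69) to Gusb (0.61), Polr2b (0.74) and Rab7 (1.05), with a median of 0.13. Lower genes made up 68.8%, 58.1%, 50.8% and 77.7% of all 2-fold calls in these settings. Slc1a4, Slc36a1, Slc38a7 and Slc38a10 changed sign between them. Slc43a2 had -1.13 as deposited and -1.01, -0.90 and -1.26 in the other settings, so it was within 2-fold after quantile normalization. Slc3a1 stayed at least 2-fold higher in all 4 (1.67 to 1.91), and Slc7a6 passed 2-fold after quantile normalization, at 1.07. On their representative probe sets Slc3a2 and Slc7a5 were below 0 and Slc38a1 above 0 in all 4. The second Slc38a1 probe set was at -0.02 when scaled on housekeeping genes.

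**Figure D3:**
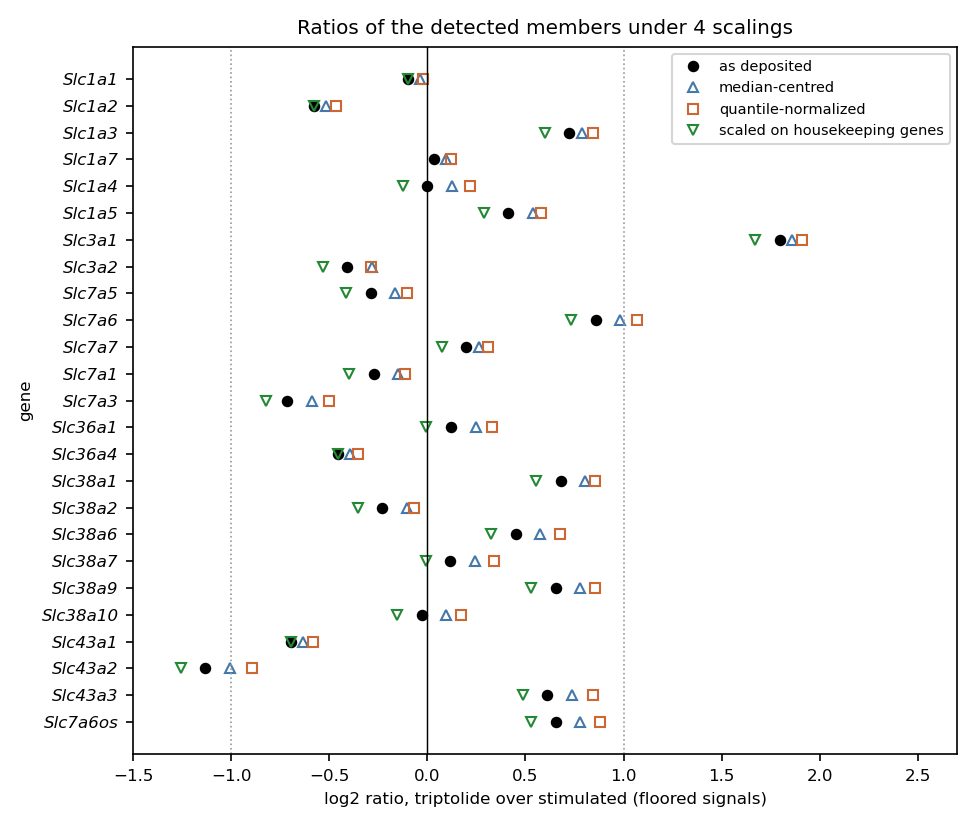
Log2 ratio of triptolide over stimulated on floored signals for each detected member, as deposited (filled circles), median-centred, quantile-normalized and scaled on housekeeping genes, with dotted lines at 2-fold. A missing symbol means that the gene was under the floor on both arrays in that setting. Slc3a1 lies beyond 2-fold in all 4 settings, and Slc43a2 comes inside it after quantile normalization, at -0.90.

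Amino acid carriers outside the 6 families were listed for comparison. Of 33 listed genes on the array 20 were detected, 2 (10%) at least 2-fold higher and 4 (20%) at least 2-fold lower, with a median of -0.20. The shares over all detected genes were 5.60% and 12.4%, with a median of -0.16. The lower ones were the mitochondrial carriers Slc25a15 for ornithine (694 to 221, -1.65), Slc25a12 for aspartate and glutamate (1657 to 535, -1.63) and Slc25a22 for glutamate (411 to 162, -1.34), and the glycine transporter gene Slc6a9 (508 to 181, -1.49). The higher ones were Ctns, of lysosomal cystine export (126 to 269.5, 1.10), and Slc16a10, of aromatic amino acids (118 to 245, at least 2.07-fold). Slc15a3, of lysosomal histidine and peptides, was just within 2-fold (123 to 241, 0.96).

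Genes of amino acid sensing by mTORC1 were also listed, together with subunits, regulators and a substrate of the kinase. Of 38 detected genes 8 (21.1%, beside 12.4% of all detected genes) were lower by at least 2-fold. None was higher by as much (5.60% of all), and the median was -0.33, beside -0.16. Eif4ebp1, the translation repressor that mTORC1 phosphorylates, went from 3632 to 570.4 (-2.67). Seh1l, of the GATOR2 complex, went from 2298 to 473 (-2.28), Kptn, of the KICSTOR complex, from 508 to under the floor (at least 4.29-fold), and the arginine sensor Castor1 from 1169.7 to 279.7 (-2.06). The highest were Flcn (0.81), the Rag GTPase gene Rragc (0.79) and Rheb (0.77), all within 2-fold.

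The ATF4 response list was lower. It holds no gene of the 6 carrier families, although several of those genes are also known ATF4 targets. Like the other lists, it was chosen with earlier results of these data known. Of 17 detected genes 9 (52.9%, beside 12.4% of all detected genes) were lower by at least 2-fold. None was higher by as much (5.60% of all), and the median was -1.07, beside -0.16. Asparagine synthetase, Asns, went from 1246 to 201 (-2.63), Ddit4 from 4169 to 999.6 (-2.06) and Phgdh from 6216 to 1750.2 (-1.83). Ddit3 was the only one above 0, at 0.48, with Atf5 (-0.21) and Eif2ak3 (-0.28) the next. Atf4 itself had signals of 7321 and 4024 (-0.86). Some carrier genes of the 6 families that are known ATF4 targets were picked here after their values were seen. Their ratios were -0.41 (Slc3a2), -0.29 (Slc7a5) and -0.23, -1.21 and -0.22 (the 3 Slc38a2 probe sets). Slc7a1 had -0.27 and 0.47 on the probe sets measured on both arrays, and Slc1a5 had 0.41 and -0.53. Slc7a11, described above as an ATF4 target, was under the floor on both arrays and has no ratio. Slc1a4 had 0.00 on the probe set measured on both arrays and, as bounds, -0.74 and -0.13 on the others, and the third Slc7a1 probe set had a bound of -0.44. Whether carriers and the other targets differ was not tested.

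**Figure D4:**
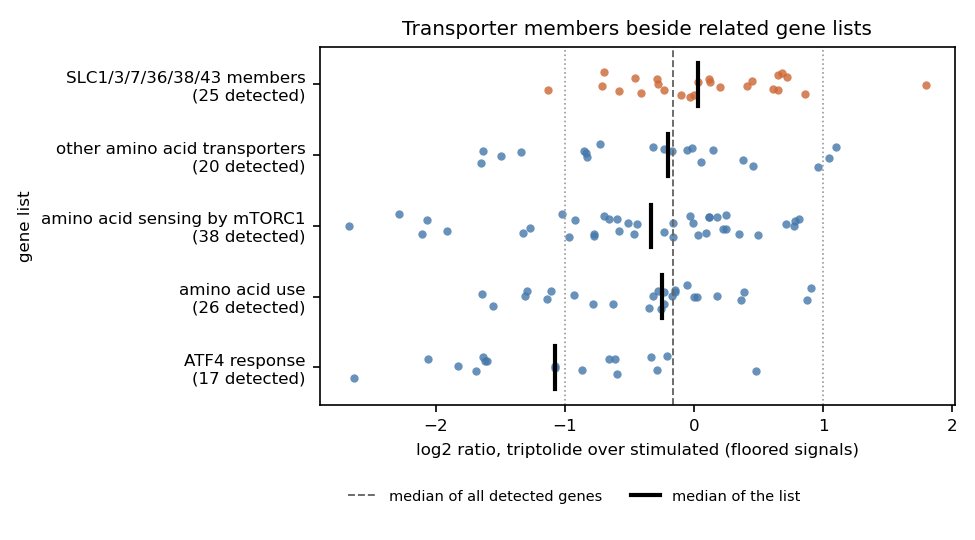
Log2 ratio of triptolide over stimulated for the detected genes of the 6 carrier families and of 4 related lists; each dot is a gene, black bars are list medians, the dashed line is the median of all detected genes and dotted lines mark 2-fold. The detected members, Slc7a6os among them, have a median of 0.03 and the ATF4 response list one of -1.07. The lists were chosen with earlier results of these data known.

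The T cell label was checked against defining markers. All 13 T cell markers on the array were above the floor on both arrays, with a summed signal of 74965 without and 50178 with triptolide. Of these, 5 (38.5%, beside 12.4% of all detected genes) were at least 2-fold lower. None was higher by as much (5.60% of all). Cd8a (-1.60), Cd28 (-1.55) and Cd2 (-1.34) were the lowest, and Cd3e (0.46), Cd3g (0.18) and Zap70 (-0.01) the highest. Of 7 B cell markers 6 were detected (summed signal 5123 and 3233), of 8 myeloid markers 5 (1151 and 1285), of 3 natural killer cell markers 1 (203 and 219), of 4 platelet markers 2 (642 and 1318) and of 2 erythroid markers none (101 and 108). Among B cell markers Blnk (306 to under the floor), Cd22 (-1.05) and Ighm (-0.95) were lowest and Cd79a highest (0.95), and among myeloid markers Mpeg1 (342 to under the floor) was lowest and Lyz2 highest (72.2 to 259.5). Both detected platelet markers, Gp5 (296 to 862, 1.54) and Itga2b (191 to 407, 1.09), were at least 2-fold higher, beside 5.60% of all detected genes. The remaining platelet markers, Pf4 (107.1 to 11.5) and Ppbp (48.8 to 38.3), were under the floor on both arrays and not higher with triptolide. The myeloid and platelet sums were higher and the B cell sum lower with triptolide, but these sums include values under the floor. The myeloid sum went from 1151 to 1285 while Lyz2 alone went from 72.2 to 259.5. Of the 5 detected myeloid markers, 4 were above 0 and 1 below. The part of these cell types in the ratios of the dim carriers was not tested. In bulk RNA, fewer cells of a type and less RNA per cell cannot be told apart.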

How the data were processed

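The deposited values are linear signal intensities that the authors made with MAS5, per the submitters' processing notes, 1 for each probe set on each array; the sources used here give neither the version nor the scaling. The 2% trimmed mean of the first 100 probe sets was 2000.0 on both arrays, and that of all 45037 was 383 and 340, so the level of the members rests on how those 100 were scaled. Of 45037 probe sets, 34945 had 1 gene symbol in the platform annotation, 932 several and 9160 none; 34741 matched the RefSeq table of GRCm38.p6 by Entrez number. One probe set naming Slc1a2 and another gene was left out.

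The floor of 118 was the higher of the 95th percentiles of the chemosensory probe sets on the arrays (107 and 118). Ratios were computed in Python 3.11.15 with NumPy 2.4.6 and pandas 2.3.3 on floored signals, called at 2-fold; a ratio with 1 side at the floor is a bound. The calculation was tested on simulated data with changes planted only in genes whose mean log2 signal exceeded that of 4 times the floor. It was thus not tested on planted changes in dim genes such as Slc3a1 and Slc43a2. Every detected member was named, and from each related list the 3 highest and 3 lowest detected genes (fewer from the small cell type lists); other genes were chosen after their values were seen. Members and lists were chosen with earlier results of these data known. Alternatives were 3 scalings, 4 treatments of the floor, 2 choices of probe sets, a filter on dim genes and 2 other folds.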

Additional observations from a re-analysis of the deposited data

How the results depend on the processing

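The median ratio (log2) of all detected carrier genes was 0.03 as deposited. It ranged from -0.05 when scaled on housekeeping genes to 0.20 after quantile normalization, so its sign depended on the scaling. In the same 2 settings the median of all detected genes was -0.27 and 0.01. These moves were smaller than 0.49, the SD between probe sets, but that is the spread of a single probe set and a wide measure for a median over genes. The count of 1 member at least 2-fold higher and 1 lower was the same after median centring, scaling on housekeeping genes, a floor at the 90th percentile (101), the median over probe sets, leaving out probe sets of shared sequence, and without Slc7a6os, a setting chosen after seeing the data. It was 2 and 0 of 26 detected members after quantile normalization, and 0 and 0 with the floor doubled or among genes reaching 4 times the floor. With no floor it was 8 and 8 of 42, and with a pseudocount of 100 in place of it 2 and 0 of 42. At 1.5-fold it was 7 and 3 of 25, and at 3-fold 1 and 0 of 25. Among all genes, 610 higher and 1346 lower of 10886 detected became 882 and 912 of 10895 after quantile normalization. They were 769 and 1066 of 10875 after median centring and 475 and 1653 of 10711 when scaled on housekeeping genes. With the floor doubled 419 and 968 of 8206 were called, and the same counts of 6146 genes reaching 4 times the floor. With no floor the counts were 2863 and 3661 of 18193, and with the pseudocount 542 and 1060 of 18193. At 1.5-fold 1451 and 2923 of 10886 were called, and at 3-fold 186 and 379. Fewer genes pass a higher floor or fold by construction, and for the other changes the cause was not tested. Of 219 values of single members in these settings, 209 moved by less than 0.49, 10 by more, and no member beyond 2-fold changed sign. Many of the values could not move, since a changed floor leaves a gene that is bright on both arrays as it was. Only Slc3a1 and Slc43a2 were beyond 2-fold as deposited, so the sign count covers them alone. No paired analysis was possible because each group holds 1 array. In 8 of the 25 detected members 1 signal was under the floor, so their ratios are bounds. Low signals limit others too, such as Slc36a1, measured at 143 and 155.5. With the floor doubled 14 members were detected, and 9 reached 4 times the floor, so the counts in those settings rest on fewer genes.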

Other observations

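Genes that use the imported amino acids were looked at beside their carriers. Of 26 detected genes 6 (23.1%, beside 12.4% of all detected genes) were at least 2-fold lower with triptolide. None was at least 2-fold higher (5.60% of all), with a median log2 ratio of -0.24 beside -0.16 for all detected genes. The lowest were Bckdhb, of branched-chain amino acid breakdown (376 to 120.5, log2 ratio -1.64), Gclm, of glutathione synthesis (469 to 159, -1.56), and Srm, of polyamine synthesis (6567 to 2648, -1.31). The transaminase genes Gpt2 (290.5 to under the floor, at least 2.45-fold) and Got1 (5392 to 2503, -1.11) and the proline synthesis gene Aldh18a1 (2436 to 1107, -1.14) were lower as well. Glul, which makes glutamine from glutamate, was the highest (827 to 1550.0, 0.91), followed by Bckdha (182 to 335, 0.88) and the polyamine synthesis gene Odc1 (9023 to 11812, 0.39). Bckdha and Bckdhb encode subunits of 1 enzyme and went opposite ways.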
